A study of Mus musculus with 2 samples.

Results

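A population of tumour macrophages chosen by Arg1 together with Mmp12, Hmox1 and Hilpda was followed in leukocytes of MC38 tumours, a mouse colon carcinoma line, by single-cell RNA sequencing. Live CD45+ cells, CD45 being found on all leukocytes, were sorted on day 19 after inoculation from a group given BiDT and from a control group (Ctrl). Each group is 1 library made from a pool of 5 biological replicates. Differences between BiDT and Ctrl are therefore given without a test, no replicate checks them, and the intervals reflect counting error alone. The labels define neither BiDT nor what Ctrl received, and give no strain, age or sex of the mice; in the title of the series an antibody to TIM3 is fused to an interferon. A cell was a member when it held at least 500 UMIs (unique molecular identifiers, 1 per captured RNA molecule), at most 10% of them mitochondrial, at least 2 UMIs of Lyz2, at least 3 of Arg1 and at least 2 over Mmp12, Hmox1 and Hilpda together. Cells with more than 2 UMIs over Retnla, Ear2 and Fcrls or over the cell cycle genes Mki67, Top2a, Birc5 and Pclaf were left out, as were those with more than 1 of Ctsk or of Ace and Adgre4 together, or with any of Cd3d, Cd3e and Cd3g. The rule was met by 12217 of the 69306 barcodes, 4223 of 34996 in BiDT and 7994 of 34310 in Ctrl. They are called Arg1+ macrophages here. The other phagocytes, 5746 cells in BiDT and 8204 in Ctrl, met the same Lyz2 minimum and the same upper limits but missed the Arg1 minimum, that of the other 3 genes, or both.

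Macrophages of solid tumours arise largely from blood monocytes, and those in poorly perfused regions switch on genes under the hypoxia-inducible factors, which the cell degrades while oxygen is plentiful. Arg1 encodes arginase 1, which breaks down arginine and is a classical marker of alternatively activated and suppressive macrophages. Mmp12 is macrophage elastase, Hmox1 is heme oxygenase 1, which degrades heme, Hilpda coats lipid droplets and is a target of the hypoxia-inducible factors, and Pf4 is platelet factor 4, a chemokine that macrophages also make. Type I interferons act through a receptor present on nearly all cells and induce antiviral genes through transcription factors that include IRF9.

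The 2 libraries differed in depth, with 130313537 UMIs in BiDT and 211047063 in Ctrl and medians of 2670 (BiDT) and 4267.5 (Ctrl) UMIs per filtered cell. Among Arg1+ macrophages the medians were 3896 (BiDT) and 5572 (Ctrl) UMIs per cell, the median mitochondrial shares 0.852% (BiDT) and 1.69% (Ctrl), and the shares of UMIs taken by Malat1, a nuclear noncoding RNA, 0.869% (BiDT) and 0.45% (Ctrl). Values at equal depth are given beside the shares, and counts of genes were also taken in thinned cells, in cells of 2000 to 6000 UMIs and in cells with Malat1 at most 1% of UMIs. Beyond these, the part of the differences in the results was not tested. The libraries shared 713 barcodes, 2.08% of the smaller set, and 23 of the barcodes of Arg1+ macrophages occurred as such in both. Expression is given as CPM, UMIs summed over the cells of a class and scaled to 1000000 UMIs of that class, and as log2 of the ratio of 2 such values with an exact conditional binomial 95% interval. RNA of the rule genes was also found in cells of other types. Whether it came from RNA free in the suspension (free RNA) or from cells captured together (doublets) was not tested. The minimums of Lyz2, Arg1 and the 3 further genes were met by 1.99% of T cells in BiDT (exact 95% interval 1.55 to 2.51%) and 2.47% in Ctrl (1.88 to 3.18%), cells with at least 3 UMIs over the Cd3 genes and none of Csf1r or Cd68, at median depths of 3278.5 (BiDT) and 3203.5 (Ctrl) UMIs. The shares were 1.42% (BiDT) and 3.42% (Ctrl) of NK cells, 1.73% (BiDT) and 6.98% (Ctrl) of neutrophils, and 1.63% (BiDT) and 5.42% (Ctrl) of Sparc+ non-immune cells. Their median depths were 4778 (BiDT) and 5276 UMIs (Ctrl) for NK cells, 1975 (BiDT) and 1984 UMIs (Ctrl) for neutrophils, and 5854 (BiDT) and 9246 UMIs (Ctrl) for Sparc+ cells.

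The genes that chose the cells describe them and are not findings. Arg1 stood at 4918 CPM in Arg1+ macrophages of BiDT and at 5457 CPM in those of Ctrl, against 544 (BiDT) and 865 CPM (Ctrl) in the other phagocytes and 194 (BiDT) and 236 CPM (Ctrl) in T cells. A median cell held 14 UMIs of Arg1 in BiDT and 21 in Ctrl. Mmp12 stood at 2806 (BiDT) and 2670 CPM (Ctrl), Hmox1 at 617 (BiDT) and 387 CPM (Ctrl), and Hilpda at 726 (BiDT) and 589 CPM (Ctrl) in Arg1+ macrophages of BiDT and Ctrl. In T cells Hilpda reached 187 (BiDT) and 205 CPM (Ctrl), the highest of the 3 in that comparison cell type, which bears on what a single Hilpda UMI shows. Lyz2, the lysozyme gene of phagocytes that set the first minimum, stood at 3006 CPM in BiDT and 5955 CPM in Ctrl. At the edge of the rule, 270 BiDT and 472 Ctrl members held exactly 3 UMIs of Arg1, while 394 (BiDT) and 638 (Ctrl) cells fell short with 2. Their Spp1 levels were 2533 (BiDT) and 1639 CPM (Ctrl) just inside, and 2087 (BiDT) and 1738 CPM (Ctrl) just outside. Exactly 2 UMIs over Mmp12, Hmox1 and Hilpda were held by 387 (BiDT) and 875 (Ctrl) members, and 448 (BiDT) and 1065 (Ctrl) cells fell short with 1.

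Arg1+ macrophages made up 12.3% of the filtered cells in BiDT (4223 of 34423, exact 95% interval 11.9 to 12.6%) and 24.5% in Ctrl (7994 of 32608, 24.05 to 24.99%), a log2 ratio of -0.999 (-1.05 to -0.94). Within the Lyz2 phagocytes the gap was narrower, at 42.4% in BiDT (41.4 to 43.3%) and 49.4% in Ctrl (48.6 to 50.1%), a log2 ratio of -0.22 (-0.27 to -0.17). Since shares of all sorted leukocytes depend on every other cell type, the second denominator compares phagocytes with phagocytes. Every filtered cell held at least 1000 UMIs, and after thinning to that number 4.09% of filtered cells in BiDT and 10.6% in Ctrl met the rule, a log2 ratio of -1.37, and -0.25 within the phagocytes. With at least 2 UMIs over Csf1r, Cd68, Fcer1g and Lyz2 in place of Lyz2, an alternative chosen after seeing the data, the shares were 16.4% (BiDT) and 26.7% (Ctrl), log2 ratios of -0.70 of all filtered cells and -0.39 of phagocytes. The share was lower in BiDT under each of the 11 definitions and for both denominators, and within the phagocytes the log2 ratio lay between -0.39 and -0.09.

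**Figure D1:**
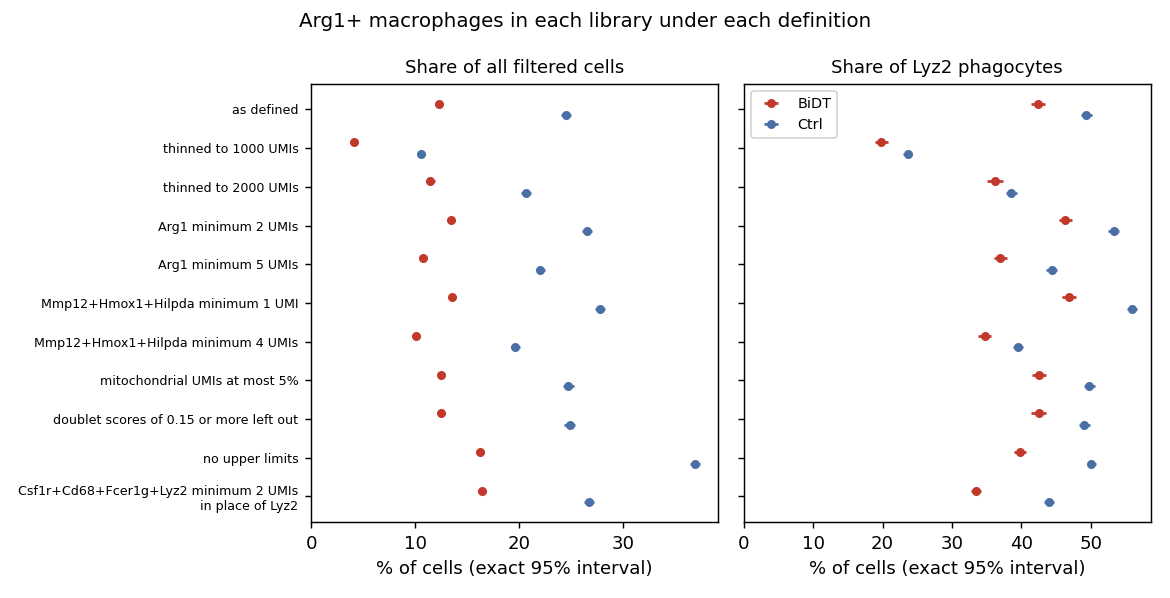
Share of cells that meet the rule for Arg1+ macrophages (x axis, % of all filtered cells at left and % of Lyz2 phagocytes at right) under each definition (y axis); points are BiDT (red) and Ctrl (blue) with exact 95% intervals. As defined, the points lie at 12.3% in BiDT and 24.5% in Ctrl at left, and at 42.4% (BiDT) and 49.4% (Ctrl) at right, and BiDT lies below Ctrl under every definition shown.

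Genes that the rule did not use describe the cells further. Pf4, the fifth marker and outside the hypoxia list, reached 1404 CPM in Arg1+ macrophages of BiDT and 802 CPM in those of Ctrl. In the other phagocytes it stood at 223 (BiDT) and 113 CPM (Ctrl), log2 ratios of 2.65 (BiDT) and 2.83 (Ctrl). A median Arg1+ macrophage held 0 UMIs of Pf4 in each library. A UMI of it was found in 49.2% (BiDT) and 40.7% (Ctrl) of them, and after thinning to 1000 UMIs in 31.2% (BiDT) and 19.8% (Ctrl). The 4 platelet markers Ppbp, Gp9, Itga2b and Gp1ba summed to 5.25 CPM in BiDT and 7.27 CPM in Ctrl, of which Ppbp made up 4.69 (BiDT) and 6.59 CPM (Ctrl), and Gp9 was at 0 in both. Of the 10 macrophage markers, 5 were at least 1.5 times higher in Arg1+ macrophages than in other phagocytes in both libraries and 0 lower: Cd68, the efferocytosis receptor Mertk and the complement genes C1qa, C1qb and C1qc. The receptor gene Csf1r was at similar levels, 265 (BiDT) and 376 CPM (Ctrl) in Arg1+ macrophages against 262 (BiDT) and 362 CPM (Ctrl) in the others. Markers of dendritic cells were lower in 6 of 7 and those of neutrophils in 6 of 6, and the neutrophil list summed to 263 CPM in BiDT and 148 CPM in Ctrl. Of 6 monocyte markers 4 were lower, Ly6c2, Plac8 and Vcan among them, and Chil3 was higher. Over all 12032 genes compared, 2.84% were at least 1.5 times higher in Arg1+ macrophages in both libraries and 8.6% lower, and the median log2 ratio was -0.07 in BiDT and -0.14 in Ctrl. Since the rule divides these cells by their own counts, what follows of this comparison is a description.

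Among the genes higher in Arg1+ macrophages than in the other phagocytes, the largest difference was that of Mmp13, a collagenase, at 999 CPM in Arg1+ macrophages of BiDT and 296 CPM in those of Ctrl, against 128 (BiDT) and 24.5 CPM (Ctrl) in the others, log2 ratios of 2.97 (BiDT) and 3.59 (Ctrl). Among the other phagocytes, cells with at least 3 UMIs over C1qa, C1qb and C1qc and at most 1 of Ly6c2 (C1q-high) held 382 (BiDT) and 38.5 CPM (Ctrl) of Mmp13, and cells with at least 2 UMIs of Ly6c2 and at most 2 of C1q (Ly6c2 cells) held 40.3 (BiDT) and 16.2 CPM (Ctrl). Spp1, osteopontin, reached 4906 (BiDT) and 5005 CPM (Ctrl) in Arg1+ macrophages, against 1264 (BiDT) and 1289 CPM (Ctrl) in the others, a log2 ratio of 1.96 in each library. Spp1 was also found outside the phagocytes. After thinning 31.4% of T cells in BiDT and 24.2% in Ctrl held a UMI of it, against 70.4% (BiDT) and 74.5% (Ctrl) of Arg1+ macrophages. Slc7a2, a transporter of arginine, stood at 361 (BiDT) and 533 CPM (Ctrl) against 102 (BiDT) and 161 CPM (Ctrl). The mannose receptor gene Mrc1 stood at 403 (BiDT) and 459 CPM (Ctrl) against 123 (BiDT) and 149 CPM (Ctrl). Areg, a ligand of the EGF receptor, F7, coagulation factor VII, the protease gene Ctsl, the chemokine genes Ccl6, Cxcl1 and Cxcl3, and Pdpn, podoplanin, completed the 12 highest together with Pf4, with log2 ratios from 1.42 to 1.98. At the other end, Ifitm6 had log2 ratios of -2.79 in BiDT and -3.32 in Ctrl and Plac8 -1.82 (BiDT) and -2.39 (Ctrl). Ly6c2, a surface antigen of inflammatory monocytes and of some T cells, stood at 702 (BiDT) and 175 CPM (Ctrl) in Arg1+ macrophages against 2383 (BiDT) and 624 CPM (Ctrl) in the others. Cxcl10, an interferon-induced chemokine that attracts T cells, was lower too, at 822 (BiDT) and 320 CPM (Ctrl) against 1903 (BiDT) and 695 CPM (Ctrl).

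**Figure D2:**
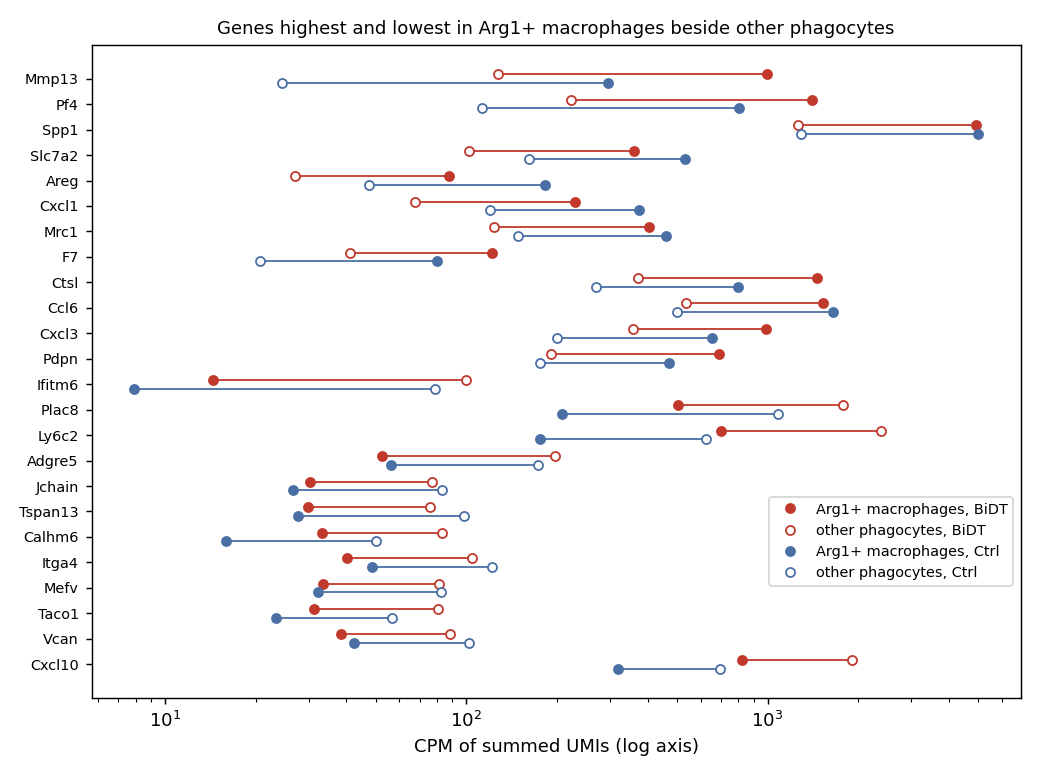
CPM of summed UMIs (x axis, log scale) of the 12 genes highest and the 12 lowest in Arg1+ macrophages relative to other phagocytes (y axis), with filled circles for Arg1+ macrophages and open ones for other phagocytes, in BiDT (red) and Ctrl (blue). Mmp13 stands at 999 (BiDT) and 296 CPM (Ctrl) in Arg1+ macrophages against 128 (BiDT) and 24.5 CPM (Ctrl) in the others, and Ly6c2 at 702 (BiDT) and 175 CPM (Ctrl) against 2383 (BiDT) and 624 CPM (Ctrl).

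Genes of the hypoxia response other than Hilpda were higher in Arg1+ macrophages of both libraries. Of the 27 measured, 10 were at least 1.5 times higher than in other phagocytes in both libraries and 1 lower, with medians of 0.74 in BiDT and 0.55 in Ctrl on the log2 scale, and with TMM scaling the 10 became 17. Bnip3, a mitophagy receptor, stood at 290 CPM in BiDT and 353 CPM in Ctrl, against 99.0 (BiDT) and 157 CPM (Ctrl) in the other phagocytes. Egln3, an oxygen-sensing prolyl hydroxylase that the pathway itself induces, stood at 137 (BiDT) and 168 CPM (Ctrl) in Arg1+ macrophages, and at 34.4 (BiDT) and 52.1 CPM (Ctrl) in C1q-high cells and 46.9 (BiDT) and 58.2 CPM (Ctrl) in Ly6c2 cells among the others. Ankrd37, Ak4 and Pdk1, the kinase that keeps pyruvate out of mitochondria, were likewise among the 10. Vegfa, the angiogenic growth factor, had log2 ratios of 0.97 in BiDT and 0.46 in Ctrl, and Hif1a itself 0.04 (BiDT) and -0.30 (Ctrl). Plod2 was the 1 lower gene, and its level of 3.08 (BiDT) and 5.80 CPM (Ctrl) lay within reach of free RNA (below 10% of the CPM in T cells, NK cells, neutrophils or Sparc+ non-immune cells, in both libraries).

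Glycolytic enzymes went the same way, with 8 of 15 higher in both libraries and 0 lower, and medians of 0.82 (BiDT) and 0.59 (Ctrl). Ldha, lactate dehydrogenase A, stood at 1224 CPM in BiDT and 1469 CPM in Ctrl, against 635 (BiDT) and 916 CPM (Ctrl) in the other phagocytes. Gapdh had log2 ratios of 1.05 (BiDT) and 0.83 (Ctrl), Pgk1 1.05 (BiDT) and 0.81 (Ctrl), Tpi1 1.11 (BiDT) and 0.59 (Ctrl), and Aldoc 1.54 (BiDT) and 1.11 (Ctrl). The glucose transporter gene Slc2a1, counted in the hypoxia list, had 0.65 (BiDT) and 0.66 (Ctrl).

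The promoters of these genes were set beside the measurements, since the hypoxia-inducible factors bind the letters ACGTG. RefSeq promoters (250 bases before to 50 after a gene's start, GRCm38.p6) were found for 25 of the 28 genes of the hypoxia list, which does not hold Hilpda, and 20 of these (80%) held ACGTG or its reverse complement CACGT, as did 11 of 17 glycolysis genes (64.7%), against 5886 of 27025 genes in the table (21.8%). A match describes letters and not binding, and CACGTG, which counts on both strands, is also the E-box of other factors. Hilpda is shown as a rule gene with a match, Bnip3 and Egln3 as hypoxia genes high in Arg1+ macrophages, and Ldha as an enzyme with several matches. The promoters of Mmp12, also a rule gene, held 0 matches, as did those of Spp1 and Mmp13 and the first of Hilpda. That of Pf4 held 1, and no promoter was listed for Arg1 or Hmox1. Capitals mark the matches. They lie at chr6:29272376-29272675 (plus strand, the second of a pair of promoters listed for Hilpda), chr7:138909457-138909756 (minus), chr12:54203825-54204124 (minus) and chr7:46845554-46845853 (plus).
Hilpda: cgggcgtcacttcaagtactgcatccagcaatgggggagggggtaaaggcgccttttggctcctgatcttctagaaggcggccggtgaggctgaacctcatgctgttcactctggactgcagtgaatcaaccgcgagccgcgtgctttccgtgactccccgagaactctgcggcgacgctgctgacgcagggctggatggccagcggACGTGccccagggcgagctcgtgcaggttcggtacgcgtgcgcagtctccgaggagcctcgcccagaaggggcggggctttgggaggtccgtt
Bnip3: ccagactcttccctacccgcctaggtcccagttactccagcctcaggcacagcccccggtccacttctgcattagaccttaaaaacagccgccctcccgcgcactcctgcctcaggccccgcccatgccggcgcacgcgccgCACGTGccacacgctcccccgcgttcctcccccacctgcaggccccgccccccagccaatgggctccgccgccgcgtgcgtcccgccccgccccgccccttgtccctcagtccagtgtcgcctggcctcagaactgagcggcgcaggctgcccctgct
Egln3: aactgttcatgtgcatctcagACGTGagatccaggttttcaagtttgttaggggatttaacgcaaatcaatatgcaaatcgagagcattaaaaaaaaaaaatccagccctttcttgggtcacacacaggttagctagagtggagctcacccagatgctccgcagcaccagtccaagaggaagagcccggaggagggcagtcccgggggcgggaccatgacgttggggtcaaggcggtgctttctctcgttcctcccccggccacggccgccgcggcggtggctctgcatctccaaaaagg
Ldha: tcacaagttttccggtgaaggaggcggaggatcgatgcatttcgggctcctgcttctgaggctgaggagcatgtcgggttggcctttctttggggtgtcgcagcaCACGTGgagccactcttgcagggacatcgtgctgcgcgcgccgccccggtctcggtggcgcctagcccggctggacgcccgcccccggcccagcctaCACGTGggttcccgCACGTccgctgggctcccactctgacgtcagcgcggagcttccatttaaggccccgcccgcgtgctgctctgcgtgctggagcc

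In arginine and polyamine metabolism, the list that describes the surroundings of arginase, 2 of 15 genes were higher in Arg1+ macrophages of both libraries and 0 lower. These were the transporter gene Slc7a2 and Nos2, inducible nitric oxide synthase, which competes with arginase for arginine. Nos2 stood at 676 CPM in BiDT and 324 CPM in Ctrl, against 239 (BiDT) and 127 CPM (Ctrl) in the other phagocytes. Odc1, which makes putrescine from the product of arginase, differed little, at 281 (BiDT) and 229 CPM (Ctrl) against 217 (BiDT) and 192 CPM (Ctrl). In heme and iron handling, 4 of 22 were higher and 3 lower, beside 2.84% higher and 8.6% lower over all genes. Among the higher ones were the ferritin chains, which store iron. Fth1 had log2 ratios of 1.00 (BiDT) and 0.96 (Ctrl), and Ftl1 0.82 (BiDT) and 0.91 (Ctrl).

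Genes of lipid-associated macrophages were higher in 13 of 25 and lower in 0, with medians of 0.81 in BiDT and 0.69 in Ctrl. The lipid receptor gene Trem2 stood at 265 (BiDT) and 232 CPM (Ctrl) in Arg1+ macrophages, but C1q-high cells among the others held 287 (BiDT) and 184 CPM (Ctrl). Abca1, which exports cholesterol, had log2 ratios of 1.29 (BiDT) and 1.19 (Ctrl), Lgals3, galectin 3, 0.98 (BiDT) and 0.99 (Ctrl), and the scavenger receptor gene Cd36 1.54 (BiDT) and 0.64 (Ctrl). Lpl, lipoprotein lipase, changed sides between the libraries: it stood at 81.5 CPM in BiDT and 84.5 CPM in Ctrl in Arg1+ macrophages, against 181 (BiDT) and 41.8 CPM (Ctrl) in the others, where Ly6c2 cells held 279 (BiDT) and 41.9 CPM (Ctrl).

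Of the chemokine genes 12 of 20 were higher in both libraries and 3 lower, with medians of 0.84 (BiDT) and 1.05 (Ctrl). The neutrophil attractant Cxcl2 was the most abundant, at 5253 CPM in BiDT and 5992 CPM in Ctrl, against 2922 (BiDT) and 3085 CPM (Ctrl). The monocyte attractants Ccl2 and Ccl7 were also higher, while the interferon-induced Cxcl9 and Cxcl10 and the T cell attractant Ccl22 were the 3 lower. Matrix genes were higher in 8 of 28 and lower in 3, beside 2.84% higher and 8.6% lower over all genes. The share of lower matrix genes lay near that over all genes. Among the 8 were Adam8, a membrane protease, with log2 ratios of 1.37 (BiDT) and 1.04 (Ctrl), and Fn1, fibronectin, with 1.26 (BiDT) and 1.23 (Ctrl). Genes of alternative activation and suppression were higher in 8 of 27 and lower in 1. Of the inflammatory cytokine genes 2 of 23 were higher and 3 lower, and Il1b stood at 4752 (BiDT) and 5086 CPM (Ctrl) in Arg1+ macrophages against 4694 (BiDT) and 5778 CPM (Ctrl) in the others.

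Interferon genes formed the opposite group. Of 49 type I interferon response genes, 25 were at least 1.5 times lower in Arg1+ macrophages than in other phagocytes of both libraries and 0 higher, with medians of -0.59 in BiDT and -0.92 in Ctrl. With TMM scaling the 25 became 15, so that the count depends on the scaling. The list summed to 16707 CPM in Arg1+ macrophages of BiDT and 2943 CPM in those of Ctrl, against 25182 (BiDT) and 5621 CPM (Ctrl) in the others. Of 23 interferon gamma response genes 9 were lower and 1, Nos2, higher. The antigen-presenting genes differed less, with 4 of 13 MHC class II genes lower and 0 higher and 0 of 23 MHC class I genes different in either direction.

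Between the groups, 1916 of 12826 genes (14.9%) were at least 1.5 times higher in Arg1+ macrophages of BiDT than of Ctrl and 916 (7.14%) lower, with a median log2 ratio of 0.08 over all genes. TMM scaling lowers every log2 ratio of this comparison by 0.16 and turns the split into 1364 higher and 1537 lower. In the other phagocytes 11.2% of 12968 genes were higher and 12.6% lower, with a median of -0.03. After thinning to 1000 UMIs per cell, 883 genes were higher in Arg1+ macrophages, and with only the cells of 2000 to 6000 UMIs, a range chosen after seeing the data, 1127.

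The type I interferon response had the highest median of the function lists. All 49 measured genes of the 52 on the list were at least 1.5 times higher in Arg1+ macrophages of BiDT, 0 were lower, and the median log2 ratio was 2.42, or 2.27 with TMM scaling. In the other phagocytes the 49 were likewise higher, with a median of 1.97. The medians over 9 alternatives lay between 2.08 and 2.45 in Arg1+ macrophages. The highest ratios were those of Ifit3b and Ifit1bl1, relatives of the IFIT proteins that bind viral RNA, with log2 values of 5.66 (5.28 to 6.06) and 5.46 (5.15 to 5.79). Reads of such near-identical copies may be split between them by the counting, and these 2 values are uncertain for that reason. Slfn4, a Schlafen gene of myeloid cells, stood at 1447 CPM in BiDT and 58.1 CPM in Ctrl, a log2 ratio of 4.64 (4.59 to 4.69). Rsad2, the antiviral enzyme viperin, stood at 1089 (BiDT) and 91.3 CPM (Ctrl), Isg15, a ubiquitin-like modifier, at 1597 (BiDT) and 180 CPM (Ctrl), and Irf7, which amplifies interferon production, at 735 (BiDT) and 68.2 CPM (Ctrl). A UMI of Rsad2 was found after thinning in 39.4% of Arg1+ macrophages of BiDT and 4.48% of those of Ctrl, against 19.4% (BiDT) and 1.24% (Ctrl) of T cells. The smallest ratio was that of the signalling gene Irf9, at 1.25. Of the 12 genes with the highest ratios of all that reached 50 CPM, 11 were on the list, among them Ifi44, Ifi208, Ifit1, Ifit2, Cmpk2 and Usp18 with log2 ratios from 3.44 to 4.38. The remaining one, Ddx60, an interferon-induced helicase, stood at 99.3 CPM in BiDT and 7.87 CPM in Ctrl. Ifitm1, which restricts viral entry, went the other way at 57.1 CPM in BiDT and 180 CPM in Ctrl.

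The promoters of this list were read for the core of the interferon-stimulated response element, TTTCNNTTT, to which IRF9 and its partners bind. Of 41 list genes with a RefSeq promoter 32 (78%) held these letters on either strand, against 12.1% of all 27025 genes, and 4.88% of the 41 held ACGTG. The hypoxia list, in turn, held the interferon core in 8% of its 25 promoters. These shares describe the lists, whatever the cells expressed. Printed are those of Slfn4 (chr11:83174936-83175235, plus strand), Rsad2 (chr12:26456403-26456702, minus) and Ifit3 (chr19:34583279-34583578, plus), chosen among the list genes with the largest ratios. Capitals mark TTTCNNTTT or its reverse complement AAANNGAAA.
Slfn4: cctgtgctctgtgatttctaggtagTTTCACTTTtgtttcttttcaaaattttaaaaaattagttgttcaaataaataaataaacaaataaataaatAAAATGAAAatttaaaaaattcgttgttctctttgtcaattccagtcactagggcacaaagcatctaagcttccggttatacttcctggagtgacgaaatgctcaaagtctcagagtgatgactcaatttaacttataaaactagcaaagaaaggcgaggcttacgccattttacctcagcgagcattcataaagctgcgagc
Rsad2: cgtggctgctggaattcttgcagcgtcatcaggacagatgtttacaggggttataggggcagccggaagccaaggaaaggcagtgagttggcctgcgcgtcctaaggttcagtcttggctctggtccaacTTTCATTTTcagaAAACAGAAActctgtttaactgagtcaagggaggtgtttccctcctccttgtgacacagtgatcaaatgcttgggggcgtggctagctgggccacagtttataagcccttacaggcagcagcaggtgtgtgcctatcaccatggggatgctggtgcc
Ifit3: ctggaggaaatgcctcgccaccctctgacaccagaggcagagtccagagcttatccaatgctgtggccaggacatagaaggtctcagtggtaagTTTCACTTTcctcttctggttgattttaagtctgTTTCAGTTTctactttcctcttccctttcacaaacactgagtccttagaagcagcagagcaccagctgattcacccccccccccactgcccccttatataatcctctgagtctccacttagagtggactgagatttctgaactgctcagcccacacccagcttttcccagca

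Of 23 genes of the interferon gamma response 18 were higher and 2 lower in Arg1+ macrophages of BiDT, with a median of 1.35. Many of them also respond to type I interferon. The GTPase genes Irgm2 and Irgm1 had log2 ratios of 1.98 and 1.80, and Cxcl10 1.36, whereas Cxcl9, which attracts the same T cells, stood at 139 CPM in BiDT and 386 CPM in Ctrl (log2 -1.48). The other lower gene was Ciita, the master switch of MHC class II genes, at 20.6 (BiDT) and 48.2 CPM (Ctrl). MHC class I presentation was higher in 15 of 23 and lower in 0, with a median of 0.80 against 0.49 in the other phagocytes, where 9 were higher. Among those others, C1q-high cells had 15 higher and 1 lower, with a median of 0.83. Ly6c2 cells had 6 higher and 0 lower, with a median of 0.32. H2-K1 stood at 5282 (BiDT) and 2252 CPM (Ctrl) and the peptide transporter Tap1 at 424 (BiDT) and 210 CPM (Ctrl). MHC class II presentation had 12 of 14 genes lower and 1 higher, with a median of -1.14 against -1.20 in the other phagocytes. H2-Eb1 stood at 888 CPM in BiDT and 2984 CPM in Ctrl, H2-Ab1 at 2227 (BiDT) and 4601 CPM (Ctrl), and the invariant chain Cd74 at 4866 (BiDT) and 9705 CPM (Ctrl). Ctss, the cathepsin that trims the invariant chain, was the 1 higher, at 5811 (BiDT) and 3742 CPM (Ctrl).

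Sterol synthesis was lower in 21 of 22 genes and higher in 0, with a median of -1.23 in Arg1+ macrophages and -1.12 in the other phagocytes. After thinning to 1000 UMIs, where fewer genes can reach the minimum, 13 were lower. Over 9 alternatives the median in Arg1+ macrophages lay between -1.385 and -0.865. Fdps, which makes farnesyl diphosphate, stood at 11.2 CPM in BiDT and 78.3 CPM in Ctrl, a log2 ratio of -2.81 (-3.01 to -2.61). Sqle, squalene epoxidase, had 9.34 (BiDT) and 41.7 CPM (Ctrl). Cyp51, a demethylase of the pathway, had 15.4 (BiDT) and 65.3 CPM (Ctrl), and Scd2, a desaturase of fatty acids outside the list, a log2 ratio of -1.58. The transcription factor gene Srebf2, which drives the pathway, stood at 48.3 (BiDT) and 95.3 CPM (Ctrl).

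**Figure D3:**
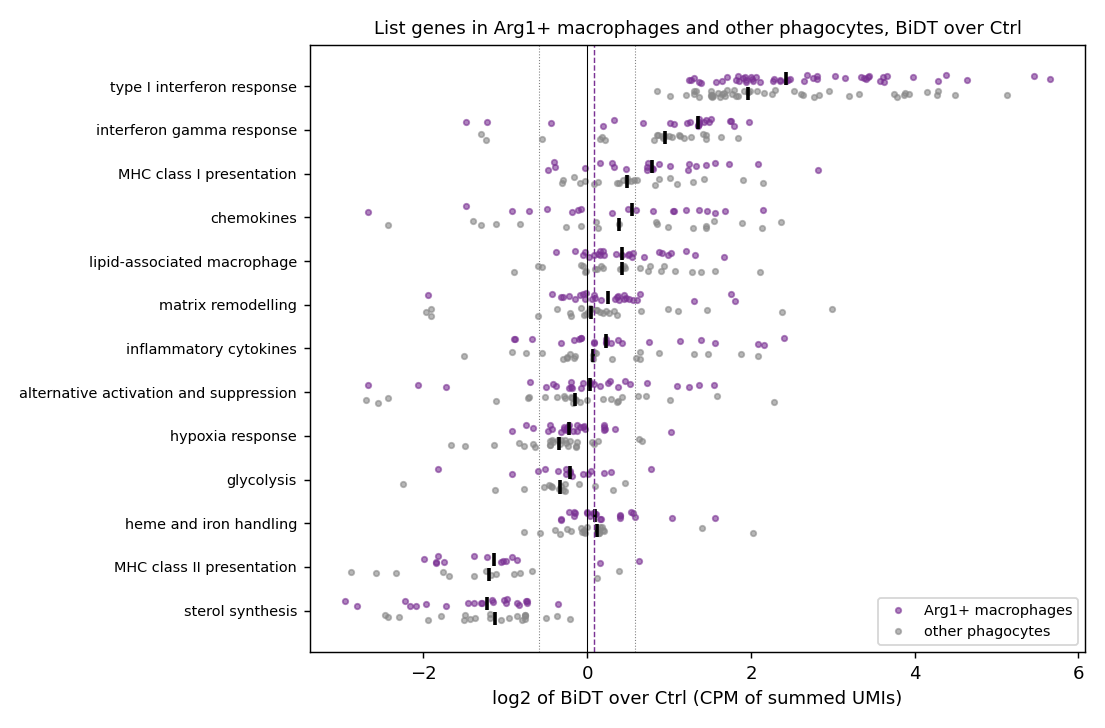
Log2 of BiDT over Ctrl (x axis) for each measured gene of 13 lists (y axis) in Arg1+ macrophages (purple) and other phagocytes (grey); black bars are medians, dotted lines mark 1.5-fold and the dashed line the median of all genes in Arg1+ macrophages. The median is 2.42 for the type I interferon response, -1.14 for MHC class II presentation, -1.23 for sterol synthesis and -0.22 for the hypoxia list in Arg1+ macrophages.

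The hypoxia genes that set Arg1+ macrophages apart differed little between the groups. Of 27 genes 1 was higher and 3 were lower in BiDT, with a median of -0.22 against -0.34 in the other phagocytes, where 2 were higher and 7 lower. Over all genes 14.9% were higher and 7.14% lower in Arg1+ macrophages. The 1 higher was Pfkfb3, a regulator of glycolysis, at 128 CPM in BiDT and 62.9 CPM in Ctrl, and the 3 lower were Fam162a, Adm and Plod2. The 10 genes that were higher than in other phagocytes of both libraries all had negative log2 ratios of BiDT over Ctrl. They ran from -0.75 (Fam162a) to -0.03 (Egln1), beside a median of 0.08 over all genes, and Fam162a and Adm were at least 1.5 times lower. Over 9 alternatives the median of the list lay between -0.38 and -0.19, with 3 to 6 genes lower. Vegfa stood at 878 (BiDT) and 764 CPM (Ctrl) and Hif1a at 414 (BiDT) and 360 CPM (Ctrl). Of 16 glycolysis genes 1 was higher and 3 were lower: Hk3, a hexokinase of leukocytes, stood at 343 (BiDT) and 200.2 CPM (Ctrl), Gapdh at 1573 (BiDT) and 2968 CPM (Ctrl), Eno1 at 539 (BiDT) and 818 CPM (Ctrl), and Aldoc at 21.6 (BiDT) and 76.3 CPM (Ctrl). In arginine metabolism Nos2 was higher with a log2 ratio of 1.06, as was Arg2, the mitochondrial arginase, with 0.69, and Srm and Gatm were lower.

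Secreted factors split in both directions. Of 20 chemokine genes 10 were higher in BiDT and 4 lower, beside 14.9% higher and 7.14% lower over all genes. The monocyte attractants Ccl7, Ccl2 and Ccl12 stood at 2437 (BiDT) and 549 CPM (Ctrl), 2411 (BiDT) and 1047 CPM (Ctrl), and 378 (BiDT) and 118 CPM (Ctrl). Ccl4, which attracts lymphocytes, stood at 2377 CPM in BiDT and 803 CPM in Ctrl. Ccl22, which attracts regulatory T cells, was lower at 6.81 (BiDT) and 43.4 CPM (Ctrl), and Ccl17, which binds the same receptor, at 58.3 (BiDT) and 243 CPM (Ctrl) (log2 -2.06, -2.15 to -1.97). Of 23 inflammatory cytokine genes 7 were higher and 3 lower. Il15, which sustains NK and CD8 T cells, stood at 30.5 (BiDT) and 5.75 CPM (Ctrl), and Il1a at 125 (BiDT) and 232 CPM (Ctrl), while Il1b, the most abundant, stood at 4752 (BiDT) and 5086 CPM (Ctrl).

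Genes of lipid handling were higher in 8 of 25 and lower in 0, beside 14.9% higher and 7.14% lower over all genes. The median was 0.43, against 0.42 in the other phagocytes, where 10 of 25 were higher and 2 lower. Among those others, C1q-high cells had 18 higher and 2 lower, with a median of 1.02. Ly6c2 cells had 6 higher and 2 lower, with a median of 0.11. Cd36 stood at 181 CPM in BiDT and 56.8 CPM in Ctrl, Plin2, which coats lipid droplets, at 981 (BiDT) and 426 CPM (Ctrl), the protease gene Ctsb at 2631 (BiDT) and 1059 CPM (Ctrl) and Ctsl at 1462 (BiDT) and 798 CPM (Ctrl). Of 28 matrix genes 5 were higher and 1 lower. Mmp13 had a log2 ratio of 1.76 (1.73 to 1.79) and 2.38 in the other phagocytes, and Lgmn, the protease legumain, 1.30. Fn1 was the 1 lower, at 681 CPM in BiDT and 2617 CPM in Ctrl, with ratios of -1.94 in Arg1+ macrophages and -1.97 in the others. Of alternative activation and suppression genes 5 of 27 were higher and 4 lower. In this list and the matrix list the share of higher genes lay near that over all genes. Cd274, the ligand of PD-1, stood at 471 (BiDT) and 220 CPM (Ctrl), the interleukin 1 antagonist gene Il1rn at 1962 (BiDT) and 829 CPM (Ctrl), and the transcription factor gene Maf at 293 (BiDT) and 114 CPM (Ctrl). Mgl2, a lectin of alternatively activated macrophages, stood at 140 (BiDT) and 462 CPM (Ctrl). Heme and iron genes were higher in 2 of 23, Slc40a1 and Lcn2, both within reach of free RNA, and lower in 0. Among complement genes 6 of 17 were higher and 3 lower, with C4b at 30.9 (BiDT) and 4.74 CPM (Ctrl). Of Fc receptor and phagocytosis genes 4 of 17 were higher, among them the high-affinity receptor Fcgr1 at 494 (BiDT) and 193 CPM (Ctrl), and 2 lower. Early response and heat shock genes had 1 of 20 higher and 4 lower, and the chaperone gene Hspa1a stood at 384 (BiDT) and 684 CPM (Ctrl).

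Havcr2, which encodes TIM3, stood at 124 CPM in Arg1+ macrophages of BiDT and 101 CPM in those of Ctrl, a log2 ratio of 0.30 (0.23 to 0.36), and at 144 (BiDT) and 149 CPM (Ctrl) in the other phagocytes. The type I interferon receptor genes Ifnar1 and Ifnar2 stood at 93.9 (BiDT) and 91.5 CPM (Ctrl) and at 146 (BiDT) and 133 CPM (Ctrl). Of the 14 genes of this list Socs1, a feedback inhibitor of cytokine signalling, and Lgals9, a ligand of TIM3, were higher, and Ceacam1 was lower. These shares lay near the 14.9% higher and 7.14% lower over all genes.

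Transcripts of other cell types differed between the groups in both directions. All 5 NK cell markers, both measured T cell markers and 4 of 6 neutrophil markers were higher in Arg1+ macrophages of BiDT, and every measured marker of these 3 lists lay within reach of free RNA. Summed over the list, NK markers stood at 166 CPM in BiDT and 30.5 CPM in Ctrl, neutrophil markers at 263 (BiDT) and 148 CPM (Ctrl), and T cell markers at 16.6 (BiDT) and 6.07 CPM (Ctrl), with 3 of the 6 T cell markers at 0 because the rule bars them. Their part in the other differences was not tested. Gzma, a granzyme of NK cells, had 90.8 (BiDT) and 12.1 CPM (Ctrl). Dendritic cell markers had 0 of 7 higher and 3 lower in BiDT, and summed to 33.9 (BiDT) and 61.1 CPM (Ctrl), with 0 within reach of free RNA. Non-immune markers had 0 of 5 higher and 2 lower, with 4 of the 5 within that reach. Cell doublets with a score of at least 0.15 were 6.51% of Arg1+ macrophages in BiDT and 5.12% in Ctrl, against 8.16% (BiDT) and 6.31% (Ctrl) of filtered cells.

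Arg1+ macrophages varied in which of the 3 genes were detected, which also depends on how many UMIs of a cell are counted. After thinning to 1000 UMIs, Mmp12 was detected in 61.0% of them in BiDT and 61.3% in Ctrl, against 9.03% (BiDT) and 9.75% (Ctrl) of T cells. Hmox1 was detected in 32.3% in BiDT and 22.6% in Ctrl, against 4.09% (BiDT) and 2.13% (Ctrl) of T cells, and Hilpda in 44.7% (BiDT) and 39.3% (Ctrl), against 15.7% (BiDT) and 16.8% (Ctrl) of T cells. The unthinned shares were 81.3% (BiDT) and 86.5% (Ctrl) for Mmp12, 62.9% (BiDT) and 56.6% (Ctrl) for Hmox1, and 78% (BiDT) and 75.5% (Ctrl) for Hilpda. Mmp12 alone was found in 22.5% in BiDT (exact 95% interval 21.3 to 23.8%) and 28.7% in Ctrl (27.7 to 29.7%), and all 3 together in 8.79% (BiDT) and 7.07% (Ctrl). Hilpda alone was found in 12.1% (BiDT) and 11.5% (Ctrl). None of the 3 was found in 14.3% (BiDT) and 19.3% (Ctrl), although the rule required at least 2 UMIs of them before thinning. Unthinned, all 3 were found in 37.8% (BiDT) and 37.1% (Ctrl), and Mmp12 alone in 7.34% (BiDT) and 11.4% (Ctrl). How far the sets after thinning reflect missed UMIs was not tested.

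**Figure D4:**
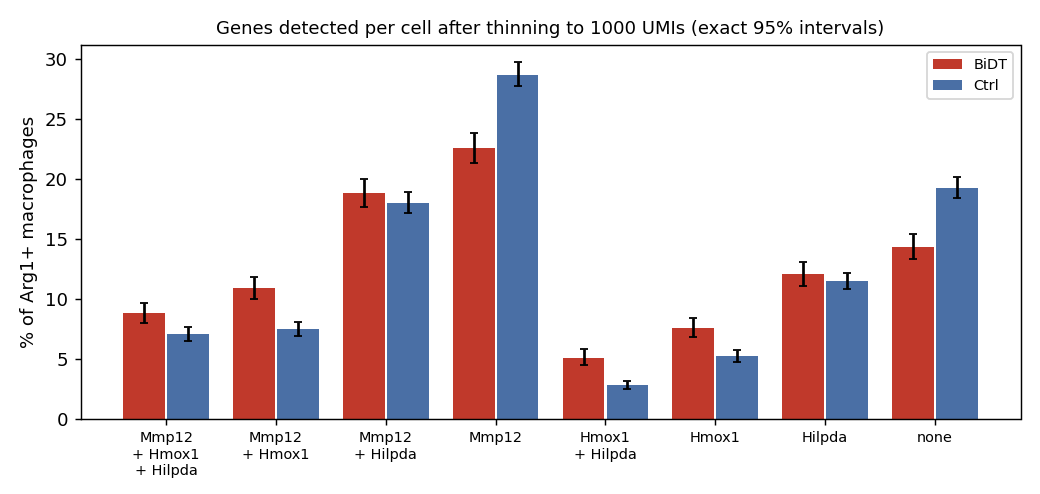
Share of Arg1+ macrophages (y axis, %) by which of Mmp12, Hmox1 and Hilpda were detected after thinning to 1000 UMIs (x axis), in BiDT (red) and Ctrl (blue) with exact 95% intervals. Mmp12 alone is the most frequent set, at 22.5% in BiDT and 28.7% in Ctrl, and all 3 genes together were found in 8.79% (BiDT) and 7.07% (Ctrl). Before thinning all 3 together were the most frequent set, at 37.8% (BiDT) and 37.1% (Ctrl).

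Cells were next grouped by detection after thinning, so that a cell without a gene could hold UMIs of it before thinning. Hilpda was detected in 44.7% (BiDT) and 39.3% (Ctrl) of Arg1+ macrophages after thinning. Before thinning it was detected in 78% (BiDT) and 75.5% (Ctrl). Cells with Hilpda but no Mmp12 after thinning numbered 724 in BiDT and 1139 in Ctrl. They were set beside those with Mmp12 but no Hilpda (1411 in BiDT and 2892 in Ctrl). Of 9279 genes 0.41% were at least 1.5 times higher in both libraries and 0.862% lower. Monocyte genes were higher in 3 of 6, namely Ly6c2, with log2 ratios of 0.99 in BiDT and 1.73 in Ctrl, Plac8, with 1.29 (BiDT) and 1.37 (Ctrl), and Vcan, with 1.31 (BiDT) and 1.09 (Ctrl). Tgm2, a transglutaminase, had 934 CPM in BiDT and 736 CPM in Ctrl against 590 (BiDT) and 418 CPM (Ctrl), and Gbp2, an interferon-induced GTPase, 566 (BiDT) and 385 CPM (Ctrl) against 344 (BiDT) and 211 CPM (Ctrl). Mmp13 was lower, at 303 (BiDT) and 99.8 CPM (Ctrl) against 1431 (BiDT) and 336 CPM (Ctrl), as were Ccl6, with -0.97 (BiDT) and -0.69 (Ctrl), and Mgl2, with -0.65 (BiDT) and -1.33 (Ctrl). In this contrast, which changes Mmp12 and Hilpda at once, 0 of 24 hypoxia genes were higher and 1 was lower, with medians of 0.13 in BiDT and 0.0016 in Ctrl. Cells with both Mmp12 and Hilpda held Egln3, a prolyl hydroxylase induced by hypoxia, at 178 (BiDT) and 263 CPM (Ctrl), against 113 (BiDT) and 148 CPM (Ctrl) with Mmp12 but no Hilpda. Slc2a1, a glucose transporter, had 245 (BiDT) and 344 CPM (Ctrl) in cells with both against 186 (BiDT) and 214 CPM (Ctrl). These 2 genes were chosen after their values were seen. Type I interferon genes had 0 of 47 in either direction in both libraries, with medians of 0.02 in BiDT and 0.34 in Ctrl.

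A division by C1q and Ly6c2, chosen after seeing the data, ran through the population as well. After thinning, a UMI of C1qa, C1qb or C1qc without Ly6c2 was found in 43.3% of Arg1+ macrophages of BiDT and 53.7% of those of Ctrl. Both C1q and Ly6c2 were found in 14.2% (BiDT) and 4.29% (Ctrl), Ly6c2 without C1q in 13.6% (BiDT) and 5.50% (Ctrl), and neither in 28.9% (BiDT) and 36.5% (Ctrl). At least 2 UMIs of Ly6c2 were held after thinning by 10.9% of Arg1+ macrophages in BiDT and 3.65% in Ctrl, against 1.09% (BiDT) and 0.126% (Ctrl) of the Sparc+ non-immune cells, used here since T cells make Ly6c2 themselves, which had median depths of 5854 (BiDT) and 9246 (Ctrl) UMIs. Before thinning these shares were 32.3% (BiDT) and 13.9% (Ctrl), against 17.4% (BiDT) and 2.14% (Ctrl). The sets above needed only a single UMI of Ly6c2, a limit at which the share of Sparc+ cells was not measured. Mmp13 stood at 1297 CPM in BiDT and 338 CPM in Ctrl in cells with C1q alone, and at 370 (BiDT) and 77.0 CPM (Ctrl) in cells with Ly6c2 alone. Pf4 had 1541 (BiDT) and 1000 CPM (Ctrl) in the first of these sets and 694 (BiDT) and 259 CPM (Ctrl) in the second, whereas Il1b, interleukin 1 beta, was at 3638 (BiDT) and 4171 CPM (Ctrl) in the first and 6087 (BiDT) and 7250 CPM (Ctrl) in the second. Hypoxia genes were spread more evenly, with Bnip3 at 284 (BiDT) and 340 CPM (Ctrl) in cells with C1q alone and 288 (BiDT) and 345 CPM (Ctrl) in those with Ly6c2 alone, and Vegfa at 841 (BiDT) and 703 CPM (Ctrl) and 853 (BiDT) and 818 CPM (Ctrl).

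The differences between BiDT and Ctrl ran through all 4 sets. The median log2 ratio of the type I interferon list was 2.69 in cells with C1q alone, 1.85 with both, 1.67 with Ly6c2 alone and 2.02 with neither. It summed to 17172 CPM in BiDT and 2567 CPM in Ctrl with C1q alone, and to 19763 (BiDT) and 6293 CPM (Ctrl) with Ly6c2 alone. MHC class II had medians of -1.25, -1.09, -0.98 and -1.02 in the same order, sterol synthesis -1.46, -1.06, -0.92 and -0.85, and the hypoxia list -0.25, -0.22, -0.14 and -0.07. Among other phagocytes the interferon median was 2.46 in C1q-high cells and 1.52 in Ly6c2 cells.

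**Figure D5:**
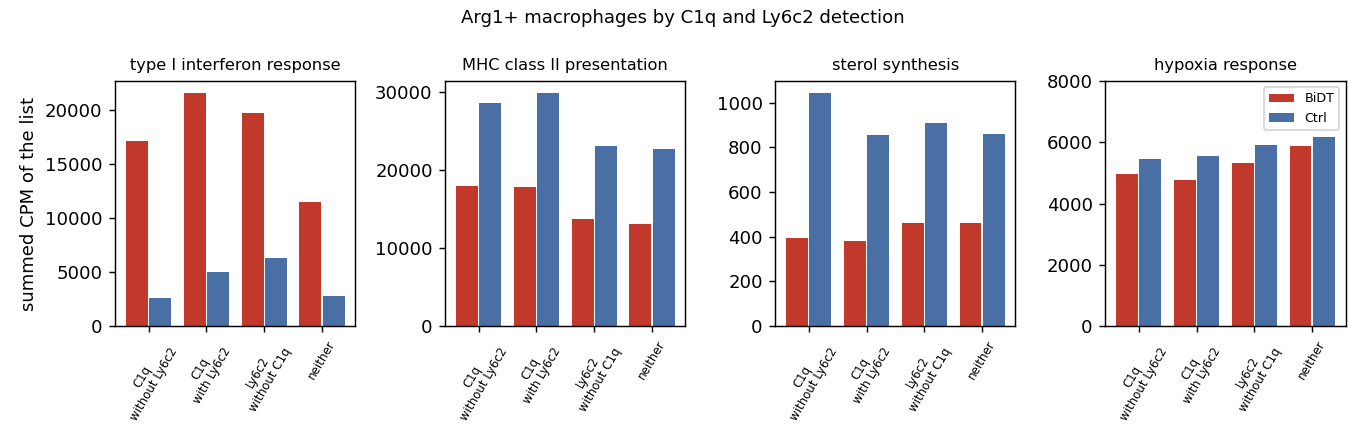
Summed CPM (y axis, from 0) of 4 gene lists in Arg1+ macrophages grouped by detection of C1q and Ly6c2 after thinning (x axis), in BiDT (red) and Ctrl (blue). Type I interferon genes sum to 17172 (BiDT) and 2567 CPM (Ctrl) in cells with C1q alone, and the hypoxia list to 4981 (BiDT) and 5447 CPM (Ctrl).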

How the data were processed

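The authors deposited un-normalized UMI counts of 32589 genes in each cell barcode. Cell Ranger 7.1.0 and GRCm39 are named in the submitters' processing notes, but barcodes of 3 joined segments are not the form Cell Ranger writes, so the counting step is not certain. The annotation and the use of strand are not given in the sources used here.

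Members, gene lists and tests were chosen with earlier results of these data known. Counts were added up over the cells of a class in each library with Python 3.11.15, numpy 2.4.6, scipy 1.17.1 and pandas 2.3.3. Genes needed 50 UMIs over both sums, and called means at least 1.5 times different. A log2 ratio has an exact conditional binomial 95% interval and a share an exact (Clopper-Pearson) one. No count model was fitted, with 1 library per group. Doublets were scored with Scrublet (scanpy 1.11.5, expected rate 5%), kept, and left out at a score of 0.15 as an alternative. NK cells (at least 2 UMIs over Ncr1 and Klrb1c), neutrophils (10 over S100a8 and S100a9, with Csf3r) and non-immune cells (2 of Sparc, none of Ptprc) held no Csf1r or Cd68. The ratio code was tested on simulated data.

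Named genes are those of the rule, the markers, the 12 highest and 12 lowest of each comparison with at least 50 CPM in the higher class, leaving out rule, mitochondrial, ribosomal, receptor, predicted and sex-linked genes and those within reach of free RNA, and the leading list genes by ratio or level. Further list genes were chosen after their values were seen. A total of 5 list symbols were absent, and 48 symbols are borne by more than 1 gene.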

Additional observations from a re-analysis of the deposited data

Results flagged for a closer look

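Gzmg, a granzyme gene of activated killer cells, was the 1 gene of 3152 compared that was at least 1.5 times higher in BiDT in Arg1+ macrophages and at least 1.5 times lower in the other phagocytes. Its log2 ratios of BiDT over Ctrl were 1.87 in Arg1+ macrophages, with 78.8 CPM in BiDT and 21.5 CPM in Ctrl, and -1.20 in the others, with 73.8 CPM in BiDT and 170 CPM in Ctrl. The difference between the 2 ratios was not tested. Levels in NK cells were 381 CPM in BiDT and 751 CPM in Ctrl. A UMI was held by 254 Arg1+ macrophages in BiDT and 295 in Ctrl, and the 20 cells with the most held 1280 of the 1561 UMIs in BiDT and 911 of 1199 in Ctrl, so that few cells set the sums.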

How the results depend on the processing

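No paired analysis was possible because each group is 1 library, and no library could be left out. The log2 ratio of the share of filtered cells, -0.999 as defined, was -1.37 after thinning to 1000 UMIs, -0.85 after thinning to 2000 UMIs, -1.19 without upper limits and -0.70 with the 4-gene minimum in place of Lyz2 (added after seeing the data). Of phagocytes, -0.22 as defined, it was -0.092, -0.33 and -0.39 under the last 3 of these. The 1916 higher genes became 883 after thinning, 1168 with a minimum of 200 UMIs, 5174 without a minimum and 1127 in cells of 2000 to 6000 UMIs (added), and the 916 lower genes 1653 without a minimum and 1537 with TMM scaling. Against other phagocytes, TMM scaling turned 25 lower type I interferon genes into 15 and 10 higher hypoxia genes into 17, and thinning turned 9 lower interferon gamma genes into 14 and 8 higher alternative activation genes into 5. Thinning left 13 of 21 lower sterol genes. The cause was not tested. Of the genes chosen by the naming rule, Jchain, among the lowest against other phagocytes, kept its sign in both libraries in 7 of 9 alternatives, Malat1 at most 1% (added) included, and the others kept theirs in each alternative that gave a value. Depth limits genes under 50 UMIs.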
